A study of Mus musculus with 2 samples.

Results

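The extracellular matrix genes described here encode collagens, laminins, other matrix proteins, the enzymes and chaperone that assemble collagen, and the proteases and inhibitors that turn matrix over. They were chosen by name: every mouse gene with a collagen chain symbol or a laminin chain symbol, and a list of 22 further genes, of which 21 were measured by a probe set assigned to 1 gene (Loxl2 was not). With 36 collagen chains and 10 laminin chains this gave 67 of the 12393 genes measured. RNA of a mouse embryonic stem cell line, E14tg2a, was hybridised to Affymetrix mouse 430A arrays. The shDAB2 sample was clone 4 of cells stably transfected with a plasmid for a short hairpin RNA against Dab2, the gene of an endocytic adaptor protein. The vector sample was clone 9 of cells that carry the control plasmid. Culture was the same for both, with 1000 U/ml of leukaemia inhibitory factor, 10% serum and antibiotics, and no time or further treatment is given in the labels. Each group is 1 clone on 1 array, so there is no replicate check and no p-value, and hairpin, clone and culture cannot be told apart.

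A basement membrane is a thin sheet of matrix under epithelia, built from a laminin network and a type IV collagen network that nidogens and perlecan link together. In the early embryo it is laid down next to the primitive endoderm and beneath the epiblast, and embryonic stem cells make several of its parts. Fibrillar collagens instead form the rope-like fibres of connective tissue and are mainly made by mesenchymal cells. Collagen chains are hydroxylated on proline and lysine in the endoplasmic reticulum and bound there by a dedicated chaperone before they are secreted.

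The values are log2 expression values from RMA, a method that corrects background, normalizes arrays to one another and summarises the probes of a probe set. Each gene was read on its brightest probe set (by the mean of the arrays), and a difference is always shDAB2 minus vector on the log2 scale. The array has no true zero, and dim probe sets show compressed differences. A floor was therefore set at 6.62, the median of the whole table, which a gene had to reach on at least 1 array. It was met by 33 of the 67 matrix genes, 30 of them on both arrays, 2 on the shDAB2 array only (Lama2 and Col9a1) and 1 on the vector array only (Timp3). Differences over the 7269 genes above the floor had an SD of 0.22. Probe sets of 1 gene differed from each other with an SD of 0.11 for a single probe set, which covers probe noise and transcript variants but not the spread between cultures. Dab2 itself was dim, at 6.33 in shDAB2 cells and 6.64 in vector cells on its brightest probe set (-0.31), while its other probe sets, both below the floor, gave -0.05 and -0.01. The embryonic stem cell marker Pou5f1 read 9.93 in shDAB2 cells and 9.83 in vector cells, and 10 of 10 stem cell markers were above the floor.

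Matrix genes that could be measured were mostly a little lower in the shDAB2 clone, and 2 were lower by at least 1.5-fold. The largest difference was in Serpinh1, the collagen chaperone gene, followed by Fn1 (fibronectin), Sparc and Thbs1 (thrombospondin). Type IV collagen, the laminin chain Lama5 and Col18a1 were lower by smaller amounts. Of the 33, only Plod2, a lysyl hydroxylase gene, was higher by more than 0.32 on the log2 scale. The fibrillar collagens were mostly too dim to compare. At a limit of 1.5-fold, 2 of the 33 genes were lower (6.06%, where 1.62% of all genes above the floor were) and 0 were higher (0.578% of all genes). At a lower limit of 0.32 on the log2 scale, 8 were lower (24.2%, against 6.07% of all genes) and 1 was higher (3.03%, against 4.91%). By direction alone 22 of 33 were lower (66.7%, against 49.3% of all genes), with a median of -0.08 against 0.0006. The 34 genes below the floor differed by -0.19 to 0.15, with 14 lower and 20 higher, so over all 67 genes 36 were lower (53.7%, against 45.9% of all 12393 genes) and the median was -0.03.

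**Figure D1:**
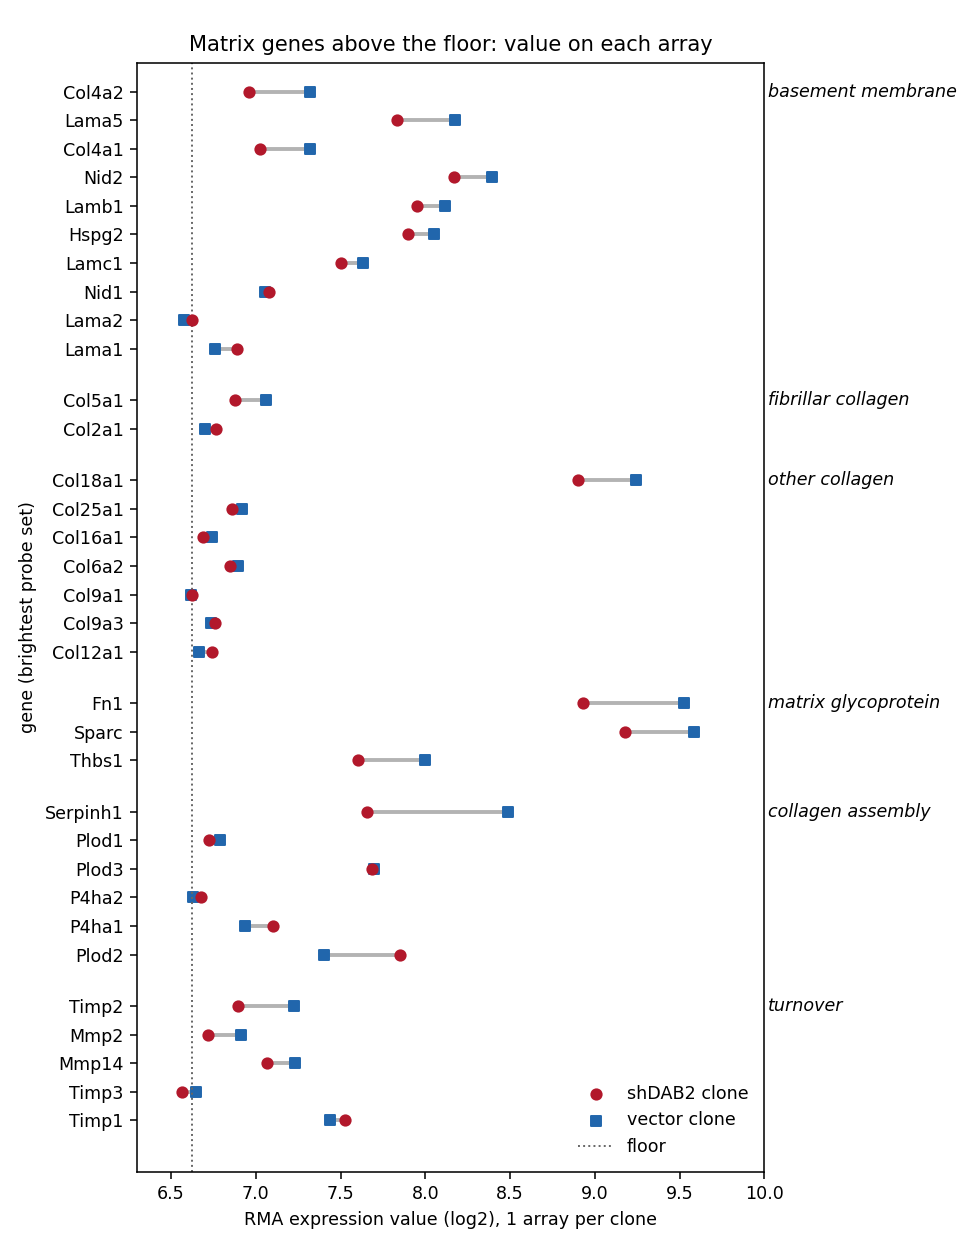
RMA expression value (log2, horizontal axis) of the 33 matrix genes above the floor in the shDAB2 clone (red circles) and the vector clone (blue squares), 1 array each, grouped by class; the dotted line is the floor of 6.62. Circles lie left of squares for 22 genes, with the widest gap at Serpinh1, and right of them for 11, with the widest gap at Plod2; levels of different genes come from different probes and are not comparable.

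Sequence before the gene start was read for the 23 of 33 genes that matched the RefSeq promoter windows (46 of all 67); Nid2, Lamc1, Lama1, Col2a1, Col9a3, Col12a1, Fn1, Thbs1, Plod2 and Mmp2 had no match. The windows of 3 lower genes of different roles are shown first, Serpinh1 (chaperone), Sparc (glycoprotein) and Timp2 (protease inhibitor). Each is the 250 bases before the start in GRCm38.p6, 5′ to 3′ on the minus strand, at chr7:99353240-99353489, chr11:55420081-55420330 and chr11:118355412-118355661. Capitals mark matches to the motifs named below them.
Serpinh1: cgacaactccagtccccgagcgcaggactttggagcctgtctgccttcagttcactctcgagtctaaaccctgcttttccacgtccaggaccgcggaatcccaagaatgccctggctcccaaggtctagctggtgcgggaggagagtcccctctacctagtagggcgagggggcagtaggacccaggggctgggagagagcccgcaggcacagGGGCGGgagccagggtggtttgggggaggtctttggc
Sparc: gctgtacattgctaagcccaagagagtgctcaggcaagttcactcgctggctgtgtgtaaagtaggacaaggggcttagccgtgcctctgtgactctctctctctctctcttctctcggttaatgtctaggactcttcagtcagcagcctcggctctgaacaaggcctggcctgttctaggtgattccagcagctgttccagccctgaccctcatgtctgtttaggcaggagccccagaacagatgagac
Timp2: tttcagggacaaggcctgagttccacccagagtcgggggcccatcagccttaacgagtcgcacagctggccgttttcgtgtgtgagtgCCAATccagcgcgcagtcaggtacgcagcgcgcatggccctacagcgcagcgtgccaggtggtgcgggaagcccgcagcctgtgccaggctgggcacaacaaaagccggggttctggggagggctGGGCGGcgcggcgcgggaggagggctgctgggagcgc
Serpinh1 holds 1 GC box, Timp2 holds 1 GC box and 1 CCAAT box, and Sparc holds no match. Their GC content was 63.6% for Serpinh1, 54.0% for Sparc and 68.0% for Timp2. Over the 23 genes, on both strands, the GC box GGGCGG was found in 18, against 67.9% of the 5929 genes above the floor with a window and 35.4% of all 27025 genes with one. The CCAAT box, CCAAT, was found in 12 of 23, against 41.2% of genes above the floor and 37.5% of all. The TATA box TATAAA was found in 1 of 23, against 7.22% and 14.3%. The AP-1 element TGANTCA was found in 0 of 23, against 5.06% and 7.82%. No motif contains another, and a match is a run of letters, not a site.

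The type IV collagen chains Col4a1 and Col4a2, which assemble with each other into the common form of that network, were lower to a like extent. Col4a2 read 6.96 in shDAB2 cells and 7.32 in vector cells, a difference of -0.36 or 1.28-fold lower. Col4a1 read 7.03 in shDAB2 cells and 7.32 in vector cells (-0.29), and its second probe set gave -0.38. The 500 genes nearest in signal had an SD of 0.18 for Col4a2 and 0.19 for Col4a1, smaller than their differences. The 2 genes lie head to head on chromosome 8 and share their start region. In the RefSeq promoter windows of GRCm38.p6, which run from 250 bases before to 50 bases after a start, the starts of Col4a1 (minus strand) and Col4a2 (plus strand) enclose the 22 bases at chr8:11312805-11312826. They are shown on the plus strand with a GC box in capitals. The Col4a2 start is at base 11312805 and the Col4a1 start at base 11312826, so the 22 bases lie downstream of both starts. The genes thus overlap by these starts, and the gene annotation puts the outermost end of Col4a1 further out, at base 11312889.
Col4a1 and Col4a2 shared start: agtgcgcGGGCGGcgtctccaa
The other type IV chains belong to the specialised networks of kidney, lung and similar tissues. Col4a3, Col4a4, Col4a5 and Col4a6 did not reach the floor, with differences of 0.01, 0.15, 0.01 and 0.14.

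Laminins are trimers of an alpha, a beta and a gamma chain, and the chains differed unequally. Lama5, an alpha chain of the epiblast and many epithelia, read 7.83 in shDAB2 cells and 8.17 in vector cells, or 1.27-fold lower, and its second probe set gave -0.20. Lama1, the alpha chain of the first embryonic laminin, went the other way, at 6.89 in shDAB2 cells and 6.76 in vector cells (0.13, with 1 probe set). The chains that pair with both were slightly lower. Lamb1 read 7.95 in shDAB2 cells and 8.12 in vector cells (-0.17), with -0.07 and -0.12 on its further probe sets. Lamc1 read 7.51 in shDAB2 cells and 7.63 in vector cells (-0.13), with -0.03 on the second probe set. The Lamb1 and Lamc1 differences are thus not far above the SD of 0.11 for a single probe set. Among the 500 genes nearest in signal the SD was 0.26 for Lamb1 and 0.22 for Lamc1, larger than their differences. For Lama5 it was 0.25, smaller than its difference on the brightest probe set. Lama2, the alpha chain of muscle, barely reached the floor, at 6.63 in shDAB2 cells and 6.57 in vector cells (0.05). The remaining chains Lama3, Lama4, Lamb2, Lamb3 and Lamc3 stayed below the floor, with differences from -0.19 (Lamb2) to -0.04 (Lamc3).

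The linkers between both networks also differed unequally. Nid2 (nidogen 2) read 8.17 in shDAB2 cells and 8.39 in vector cells (-0.23), against an SD of 0.29 among the 500 genes nearest in signal. Its paralogue Nid1 read 7.08 in shDAB2 cells and 7.05 in vector cells (0.02), and -0.04 on a second probe set, so no direction can be given. Hspg2, the gene of the heparan sulphate proteoglycan perlecan, read 7.89 in shDAB2 cells and 8.05 in vector cells (-0.16), while its second probe set gave -0.36. The 500 genes nearest to the brightest probe set of Hspg2 had an SD of 0.25.

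Set side by side, 10 basement membrane genes were above the floor, of which 7 were lower and 3 higher, with a median of -0.16. Of all genes above the floor 49.3% were lower. Lower by more than 0.32 were 2 of the 10 (Col4a2 and Lama5), against 6.07% of all genes above the floor. Over all 19 basement membrane genes the median was -0.06. Among fibrillar collagens only 2 of 9 were above the floor. Col5a1, a chain that regulates fibre diameter, read 6.88 in shDAB2 cells and 7.06 in vector cells (-0.18), with -0.18 on a second probe set and -0.004 on a further one below the floor. Col2a1, the cartilage collagen, read 6.76 in shDAB2 cells and 6.70 in vector cells (0.07). Their median was -0.06, and over all 9 it was 0.02. The main chains of connective tissue were below the floor on both arrays: Col1a1 differed by -0.10, Col1a2 by 0.03 and Col3a1 by -0.02. The minor chains Col5a2 (0.02), Col5a3 (0.06), Col11a1 (-0.04) and Col11a2 (0.11) were too. With 7 of 9 fibrillar genes near the lower end of the range, a difference in them was not detectable, and whether the classes differ was not tested.

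**Figure D2:**
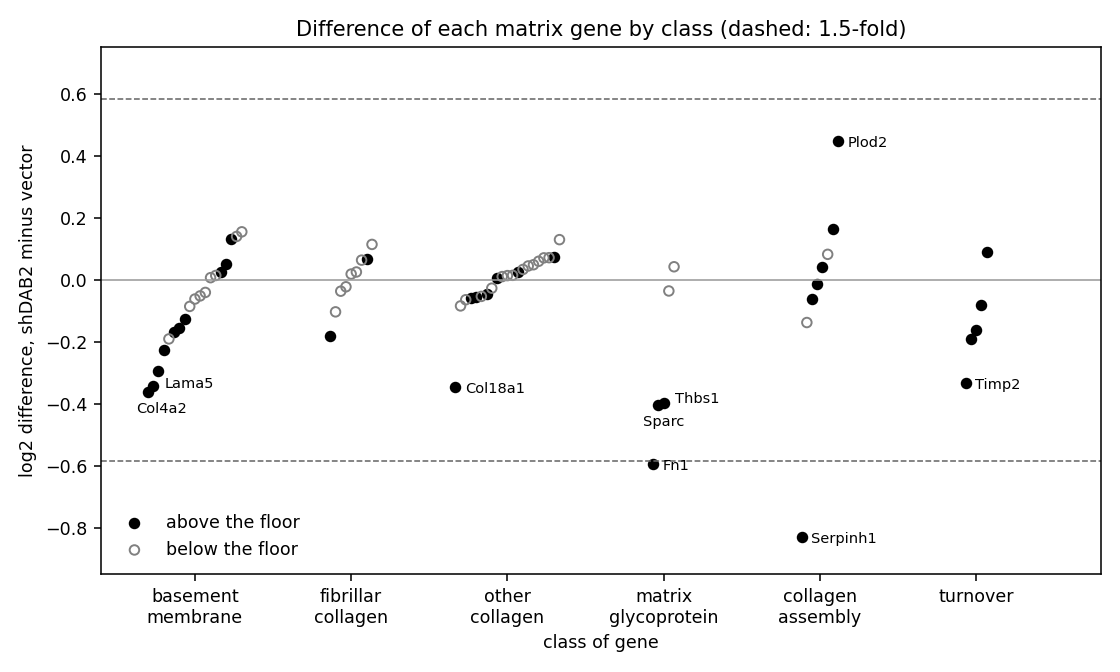
Log2 difference (vertical axis, shDAB2 minus vector) of each of the 67 matrix genes by class, sorted within a class; filled points are above the floor, open points below it, dashed lines mark 1.5-fold and genes past 0.32 in size are named. Basement membrane genes reach down to -0.36, fibrillar collagens stay between -0.18 and 0.11, and Serpinh1 and Fn1 lie below the lower dashed line.

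The 21 collagens outside both classes held 7 genes above the floor, of which Col18a1 differed by more than 0.32. Col18a1, a collagen of basement membrane zones whose cleaved end is endostatin, read 8.90 in shDAB2 cells and 9.25 in vector cells on its brightest probe set (-0.35), where the 500 genes nearest in signal had an SD of 0.32. Its second probe set read 8.38 in shDAB2 cells and 9.12 in vector cells, a difference of -0.74 or 1.67-fold lower. The gene has alternative starts, and the probe sets were not assigned to transcripts here. The other 6 differed by at most 0.07 in size: Col25a1 (-0.06), Col16a1 (-0.05), Col6a2 (-0.04), Col9a1 (0.01), Col9a3 (0.02) and Col12a1 (0.07). The remaining 14 were below the floor, at -0.08 to 0.13.

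Among the glycoproteins that connect cells to matrix, 3 of 3 above the floor were lower, where 49.3% of all genes above it were. Fn1, whose product fibronectin is bound by integrins and assembled into fibrils at the cell surface, read 8.93 in shDAB2 cells and 9.53 in vector cells. That is -0.59 or 1.51-fold lower, the 114th lowest of 7269 differences, and a second probe set below the floor gave -0.23. With the mean of both probe sets (-0.41) Fn1 no longer passed 1.5-fold. Sparc, a secreted protein that binds collagen and calcium, read 9.18 in shDAB2 cells and 9.58 in vector cells (-0.40), with -0.31 on the second probe set. Thbs1, a secreted adhesion protein that can activate latent TGF-beta, read 7.60 in shDAB2 cells and 7.997 in vector cells (-0.40), with -0.36 on the second. Vtn (vitronectin) and Tnc (tenascin C) were below the floor, at -0.04 and 0.04. Bright genes varied more on these arrays than dim ones: the 500 genes nearest to Fn1 had an SD of 0.33, those nearest to Sparc 0.33 and those nearest to Thbs1 0.24, against 0.12 for those nearest to Lama2.

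Genes of collagen assembly did not move as a class, with 3 of 6 lower, 3 higher and a median of 0.01, but they hold the extremes in both directions. Serpinh1, the chaperone that binds folded procollagen in the endoplasmic reticulum, read 7.66 in shDAB2 cells and 8.49 in vector cells. The difference of -0.83 (1.78-fold lower) was the 37th lowest of 7269, against an SD of 0.27 among the 500 genes nearest in signal. A second probe set read 7.43 in shDAB2 cells and 8.49 in vector cells (-1.06, 2.08-fold lower). The first has an _x_at ID, a mark for probes that may also match other genes, the second an _a_at ID, a mark for probes shared by transcripts of the same gene, and no further probe set of Serpinh1 was used here. Plod2, which hydroxylates the lysines of collagen ends used in cross-links, read 7.85 in shDAB2 cells and 7.40 in vector cells (0.45, 1.36-fold higher). It was the 122nd highest difference, and its second probe set gave 0.19. With the mean of both (0.316) Plod2 was under the 0.32 limit, which is 0.322 unrounded.

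The prolyl hydroxylase subunits and the other lysyl hydroxylases differed little. P4ha1 read 7.10 in shDAB2 cells and 6.94 in vector cells (0.16), with 0.04 on a second probe set below the floor. P4ha2 differed by 0.04, Plod1 by -0.06 and Plod3 by -0.01. The oxidases that cross-link collagen and elastin outside the cell were below the floor, Lox at 0.08 and Loxl1 at -0.14.

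Of the turnover genes 4 of 5 were lower, where 49.3% of all genes above the floor were. Mmp2 and Timp3 were lower on the brightest probe set only. Timp2, an inhibitor of metalloproteinases that also helps to activate the one encoded by Mmp2, read 6.90 in shDAB2 cells and 7.23 in vector cells (-0.33). Its further probe sets gave -0.28, -0.15 and -0.02 above the floor, and 0.11 and 0.11 below it, so the difference shrank with the signal. Mmp14, the membrane-bound protease that activates the Mmp2 product, read 7.07 in shDAB2 cells and 7.23 in vector cells (-0.16), with -0.20 on the second probe set. Mmp2, a gelatinase that cleaves type IV collagen, read 6.72 in shDAB2 cells and 6.91 in vector cells (-0.19), but its second probe set gave 0.05. Timp3 differed by -0.08, with 0.05, 0.04 and 0.18 on dimmer probe sets. Timp1 was the one higher, at 7.53 in shDAB2 cells and 7.44 in vector cells (0.09).

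**Figure D3:**
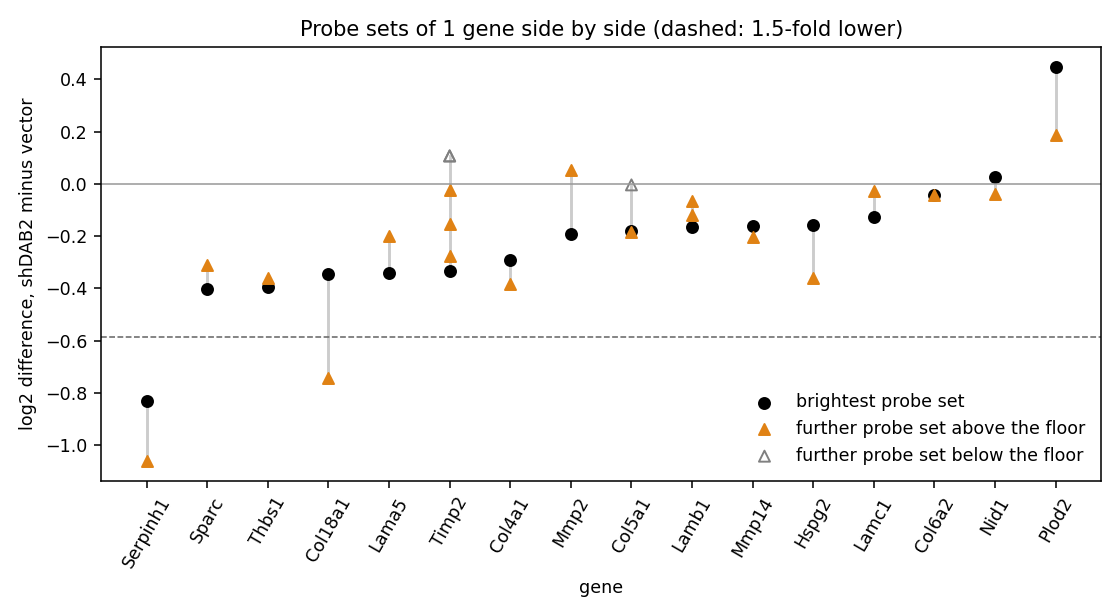
Log2 difference (vertical axis, shDAB2 minus vector) on every probe set of the 16 matrix genes with at least 2 probe sets above the floor; circles are the brightest probe set, orange triangles further ones above the floor, open triangles those below it, and the dashed line marks 1.5-fold lower. Brightest and second probe sets lie on the same side of 0 for 14 genes; Mmp2 and Nid1 cross it, and Serpinh1 and Col18a1 are lower still on the second.

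Over these 16 genes the second probe set had the same sign in 14, the exceptions being Mmp2 and Nid1, and of the 7 that differed by more than 0.32 on the brightest probe set it did so in 7. Col4a2, Nid2 and Lama1 are among the genes with 1 probe set and no such check. Fn1 and Timp3 are also outside the 16, because their second probe sets lay below the floor. These gave -0.23 for Fn1 and 0.05, the opposite sign, for Timp3. How often the second probe set has the same sign over all genes above the floor was not counted. Whether 14 of 16 differs from that share was therefore not tested.

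Further matrix genes outside the 67 were read from 5 lists. Over all genes above the floor 49.3% were lower by any amount and 1.62% at least 1.5-fold lower, the shares beside which these lists stand. Other basement membrane genes above the floor numbered 5 of the 10 measured (14 listed), and 5 of 5 were lower with a median of -0.35, 2 of them past 1.5-fold. The 5 below the floor differed by -0.01 to 0.09, with Npnt (0.09), Papln (0.05) and Egfl6 (0.04) higher and Smoc2 and Ntn4 (each -0.01) near 0, all named after their values were seen. Agrn (agrin), a heparan sulphate proteoglycan, read 8.03 in shDAB2 cells and 8.70 in vector cells (-0.67, 1.59-fold lower). Tinagl1, a secreted glycoprotein found in basement membranes, read 6.81 in shDAB2 cells and 7.40 in vector cells (-0.59, 1.51-fold lower). Both have 1 probe set. The others above the floor, named after their values were seen, were the laminin receptor gene Dag1 (-0.35), Ntn1 (-0.27) and Smoc1 (-0.26). A second probe set gave -0.25 for Dag1 but 0.0 for Ntn1, and Smoc1 has 1 probe set.

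The other lists were mixed. Other collagen biosynthesis genes had 5 of 14 above the floor lower and 9 higher, with a median of 0.07 and 0 past 1.5-fold in either direction. Within it P4hb, the partner subunit of prolyl hydroxylase, stood at 0.31 and Pcolce2, an enhancer of procollagen cleavage, at 0.38. The lowest was Bmp1, at -0.29, with 0.06 on its second probe set. P4hb, Pcolce2 and Bmp1 were named after their values were seen. The proteoglycan list had 2 of 9 lower and 7 higher, a median of 0.11 and 0 past 1.5-fold. Other glycoproteins had 5 of 10 lower and 5 higher, a median of 0.004 and 0 past 1.5-fold. Other proteases and inhibitors had 6 of 8 lower and a median of -0.10. There Ctsl, a lysosomal cysteine protease, read 9.17 in shDAB2 cells and 10.01 in vector cells (-0.84, 1.79-fold lower) and was the one gene of its list past 1.5-fold.

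**Figure D4:**
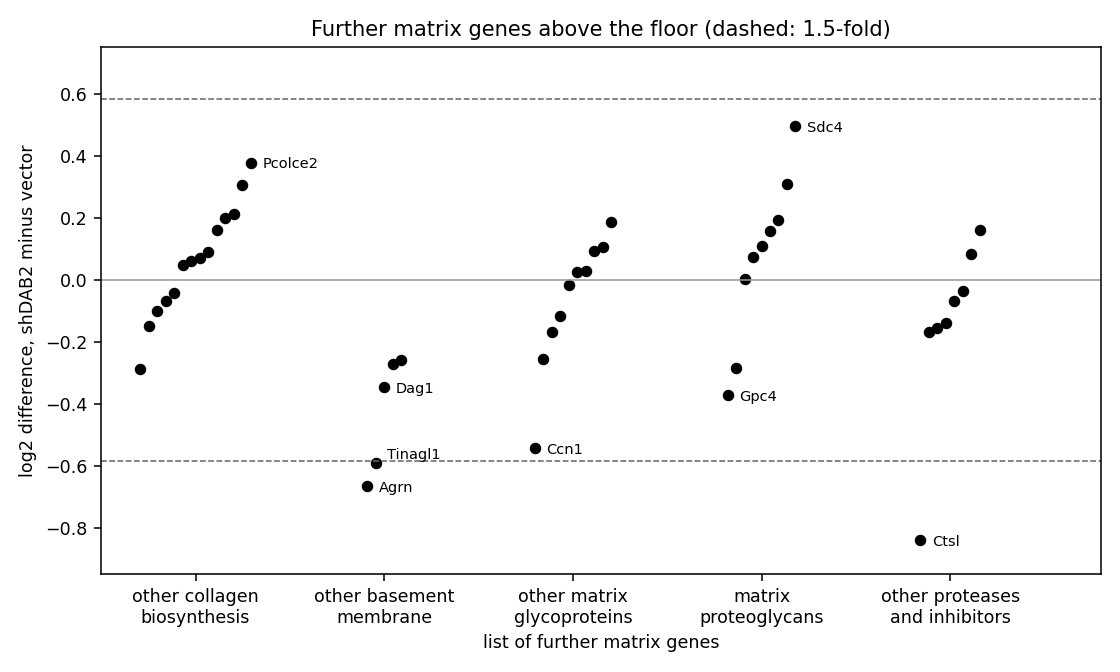
Log2 difference (vertical axis, shDAB2 minus vector) of further matrix genes above the floor by list, 1 point per gene; dashed lines mark 1.5-fold, and genes past 0.32 in size are named. The 5 other basement membrane genes lie between -0.67 and -0.26, whereas 9 of 14 other collagen biosynthesis genes lie above 0.

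Markers of cells that make much matrix were mostly dim on both arrays. Of 14 primitive and parietal endoderm markers 2 were above the floor, and the list differed by -0.13 to 0.11 (summed linear signal 1162 in shDAB2 cells and 1130 in vector cells). Of 12 fibroblast and feeder cell markers 3 were above the floor. The summed signal of the list was 1679 in shDAB2 cells and 2252 in vector cells, and Tagln, an actin-binding protein of smooth muscle and fibroblasts, supplied most of that gap at 9.13 in shDAB2 cells and 10.11 in vector cells (-0.98). The others above the floor, named after their values were seen, were Acta2, at 8.36 in shDAB2 cells and 8.49 in vector cells (-0.13), and Dcn (0.07). The 9 below it, which include Pdgfrb, Thy1, Twist1 and Prrx1, differed by -0.08 (Postn) to 0.12 (Snai2). Endothelial markers had 2 of 7 above the floor (706.5 in shDAB2 cells, 694.5 in vector cells), and cartilage and bone markers 1 of 6 (512 in shDAB2 cells, 507 in vector cells). The part of Tagln-expressing cells in the matrix differences was not tested, and fewer cells of a type cannot be told apart from less RNA per cell. Fgf4, a growth factor gene of stem cells, was the only stem cell marker past 1.5-fold, at 8.90 in shDAB2 cells and 8.29 in vector cells (0.61), but its second probe set gave 0.34, under that limit.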

How the data were processed

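Per the submitters' processing notes, the authors made the deposited log2 values with RMA. Not given in the sources used here are its version, the probe set definitions, other arrays in the run and the log base, taken as log2 because RMA writes log2. Column medians were 6.617 for shDAB2 and 6.623 for vector. Of 22626 probe sets, 20380 named 1 gene in the platform annotation (691 several, 1555 unnamed here), and only those were used; 20351 matched GRCm38.p6 RefSeq gene IDs, which changed 0 symbols. No control probe sets or detection calls were at hand, so RNA quality was not assessed. The number of arrays, 1 per group, limits the precision.

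The brightest probe set per gene was kept, with a floor at the median of all values and limits of 1.5-fold and of 0.32 on the log2 scale. The 67 genes, all lists and the naming rule (every one of the 67 above the floor, basement membrane and fibrillar genes below it, listed genes past 1.5-fold, Dab2 and Pou5f1) were chosen with earlier results of these data known. The counting code was tested on simulated data with known shifts, as a check of the code only. Cyclic loess used limma 3.58.1 in R 4.3.3, and the other alternatives were run in Python 3.11.15. Promoter windows are RefSeq's.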

Additional observations from a re-analysis of the deposited data

How the results depend on the processing

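The count of matrix genes at least 1.5-fold lower stayed at 2, and that of higher ones at 0, under cyclic loess, centring, removal of the signal or gene span trend, and every floor tried. With the mean of all probe sets it was 1, since the dimmer probe set of Fn1 took it under the limit. Without _s_at, _x_at and _a_at probe sets it was 2, but these were Fn1 (-0.59) and Col18a1 (-0.74), because Serpinh1 has no other probe set. By construction a limit of 0.32 on the log2 scale gave 8 lower and 1 higher, and a 2-fold limit 0 and 0. With no floor 36 of 67 were lower by any amount (53.7%, against 45.9% of all genes). With a floor at the 75th percentile 11 of 13 were (84.6%, against 47.7% of all genes above it). The share of matrix genes lower thus rose with the floor, being 66.7% at the main floor (49.3% of all genes above it). The number of genes counted changed too. The basement membrane median ran from -0.18 to -0.06, the weakest with no floor. The fibrillar median was -0.18 without _s_at, _x_at and _a_at probe sets, where 1 gene was left, and 0.02 with no floor; with the floor at the 75th percentile no fibrillar gene was left. Single genes shifted by less than 0.11, the SD for a single probe set, in 183 values and by more in 9. Many of the 183 could hardly shift. Centring takes the same small amount from every gene, and a gene with 1 probe set keeps its value under the mean of all probe sets. The 9 came only from that mean or from leaving out _s_at, _x_at and _a_at probe sets. Directions of Mmp2, Timp3, Nid1 and Col9a1 changed with the probe sets or centring. No paired analysis was possible because each group holds 1 array. Dim signal limits what can be said of the 34 genes below the floor.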
